A study of Mus musculus with 6 samples.

Results

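The comparison set the 2 disome libraries of mouse liver taken at ZT2 against the 2 taken at ZT0, that is 4 of the 6 libraries of the series. ZT is zeitgeber time, counted in hours from lights on, so ZT0 is the start of the light phase and ZT2 lies 2 h into it. Levels are given in RPKM, the number of reads divided by the length of the gene model in kilobases and by a factor for the size of the library. Genes entered if their RPKM averaged 1 or more across all 6 libraries, as did 8355 of the 8941 genes listed. Both groups were male mice of the inbred strain C57BL/6JRj aged 11 to 12 weeks, with no treatment or altered gene named in the labels, entrained for 2 weeks to 12 h of light and 12 h of dark. They differed by the labels only in the time of day. Each library was made from a pool of 2 livers, so n counts pools and not mice. The labels do not say more about how separately the pools of a time point were prepared, and p-values measure only the spread between these libraries, which may be technical.

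A disome footprint is the piece of messenger RNA that a pair of stacked ribosomes shields from nuclease. Such pairs form where a leading ribosome slows or stops and the one behind runs into it, on messages that carry enough ribosomes for this to happen. A gene's disome level therefore moves with its transcript amount, with how often it is translated and with how long ribosomes pause on it, and these contributions were not separated here because neither RNA nor single-ribosome footprints were analysed. In liver, the hours around lights on are the end of the nightly feeding period of mice and the start of their rest phase, and many liver transcripts are known to follow the circadian clock. In whole liver, fewer cells of a type and less RNA per cell cannot be told apart.

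The deposited tables give Ensembl gene identifiers without symbols, and no table at hand paired those identifiers with symbols, so 0 of the 8941 identifiers were matched to a name. Changes could thus be read by gene identifier, level and coding length but not by function, and the liver label was not checked against marker genes. Read numbers were recovered from the steps between the RPKM values and came to 7197462 and 7816463 in the ZT0 libraries and to 6346387 and 7845062 in the ZT2 libraries, with a median of 67 to 81 reads per gene.

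The disome levels of 2 genes were called higher in the ZT2 libraries than in the ZT0 libraries, and none passed the test in the other direction (0 genes). These are 0.0239% of the 8355 genes tested with limma at an adjusted p under 0.05, all of it on the higher side, and 0.00% were called lower. At an unadjusted p under 0.05, limma counted 451 genes higher (5.40%) and 691 genes lower (8.27%) at ZT2. The median log2 change over all tested genes was -0.04, on the log2(RPKM + 1) scale, with quartiles at -0.34 and 0.26 and a median standard error of 0.29. The number of calls depended on single libraries. It was 0 without either ZT0 library, 1 without either ZT12 library, 2 without ZT2 replicate 2 (1 higher and 1 lower), and 248 (34 higher and 214 lower) without ZT2 replicate 1. With voom on recovered reads, limma called 9 genes, 5 higher and 4 lower, and 1 of the 2 genes called on RPKM was among them.

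**Figure D1:**
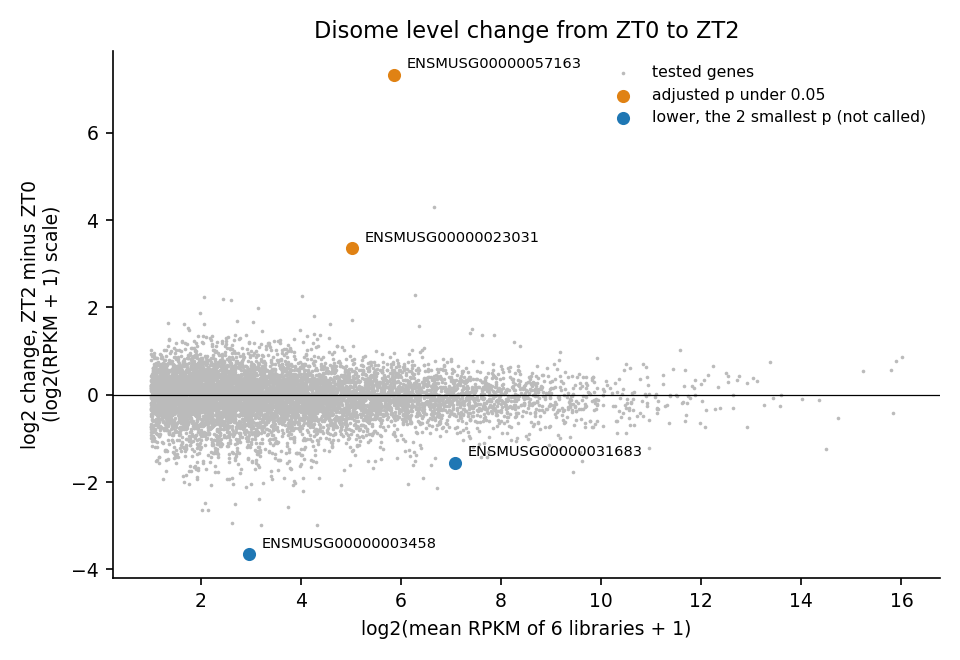
Each point is 1 of the 8355 tested genes, with log2 of its mean RPKM over 6 libraries plus 1 on the horizontal axis and its log2 change from ZT0 to ZT2 on the vertical axis. The 2 called genes (orange) stand at 7.33 and 3.36, while the 2 lower genes described in the text (blue) are at -1.55 and -3.64 and were not called.

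The called gene with the larger log2 change was ENSMUSG00000057163, with a coding length of 738 nucleotides. Neither ZT0 library held a read of it, and the ZT2 libraries had 111 and 229.7 RPKM, from 504 and 1307 reads. In the ZT12 libraries it was at 0 and 1.32 RPKM, from 0 and 12 reads. The gene was thus seen almost only at ZT2, in both pools, and the ZT2 libraries overlapped with no other library. Its mean at ZT2 was 170.2 RPKM ± 84.2 (SD, n = 2). Taking 3 reads as the most that the combined ZT0 libraries could hide, the level was at least 642-fold higher at ZT2, a limit that covers counting error only. The log2 change was 7.33 ± 0.49 (SE), and the adjusted p in limma was 0.0089. The size of the log2 change depended on the pseudocount, from 5.04 at 5 to 10.6 at 0.1. The gene no longer passed in 4 of 19 alternative settings. These were a pseudocount of 0.1 (limma adjusted p 0.061), voom on recovered reads (limma adjusted p 0.055) and the fits without either ZT0 library. In each of those 4 the direction was unchanged.

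ENSMUSG00000023031, with a coding length of 798 nucleotides, was low in the ZT0 libraries and higher in the ZT2 libraries. Its values were 5.51 and 8.29 RPKM at ZT0 and 66.8 and 93.6 RPKM at ZT2. At ZT12 it had 8.71 and 6.60 RPKM, close to the ZT0 libraries. Both ZT2 pools lay far above the other 4 libraries, and reads behind the values were 31 and 51 at ZT0 and 329 and 576 at ZT2. The mean was 6.90 RPKM ± 1.96 at ZT0 and 80.2 RPKM ± 19.0 at ZT2 (SD, n = 2 each), an 11.6-fold higher level. Limma gave a log2 change of 3.36 ± 0.29 (SE) and an adjusted p of 0.026. The call was lost in 7 of 20 settings, with adjusted p from 0.0058 to 0.23. The settings that lost it included the fit on only the 4 libraries compared (0.084), the fit without a variance trend (0.072) and the fits without any one of the 6 libraries other than ZT2 replicate 1. The 2 called genes were both high in the ZT2 pools and low in the ZT0 and ZT12 pools, and a course over the day was not tested. Without symbols, the cell types and tissues behind these reads were not tested, nor whether they came from liver.

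On the lower side, the 2 genes with the smallest p among those averaging 5 RPKM or more and without overlap between the groups are given as values. ENSMUSG00000031683, with a coding length of 240 nucleotides, had 149 and 196.2 RPKM at ZT0 and 60.1 and 55.1 RPKM at ZT2. At ZT12 it had 169 and 179.2 RPKM. The ZT2 pools were below all other libraries, and the ZT0 and ZT12 values overlapped. The ratio of the ZT0 mean to the ZT2 mean was 3.00. In limma the log2 change of -1.55 ± 0.19 (SE) had an adjusted p of 0.077. Without ZT2 replicate 1 the log2 change was -1.62, and over all settings it ran from -1.75 to -1.36.

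ENSMUSG00000003458, with a coding length of 186 nucleotides, had 6.87 and 18.8 RPKM at ZT0, from 9 and 27 reads. It was listed at 0 in both ZT2 libraries and had 6.98 and 8.27 RPKM at ZT12, from 17 and 19 reads. With the same allowance of 3 reads for the combined ZT2 libraries, it was at least 11.3-fold lower at ZT2. The log2 change of -3.64 ± 0.44 (SE) had a limma adjusted p of 0.077 and depended on the pseudocount, from -1.75 at 5 to -6.84 at 0.1, where it passed the threshold with an adjusted p of 0.036. Without ZT2 replicate 1 the log2 change was -3.64 as well. Each of these lower genes had its lowest values at ZT2 and higher values at both other times.

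**Figure D2:**
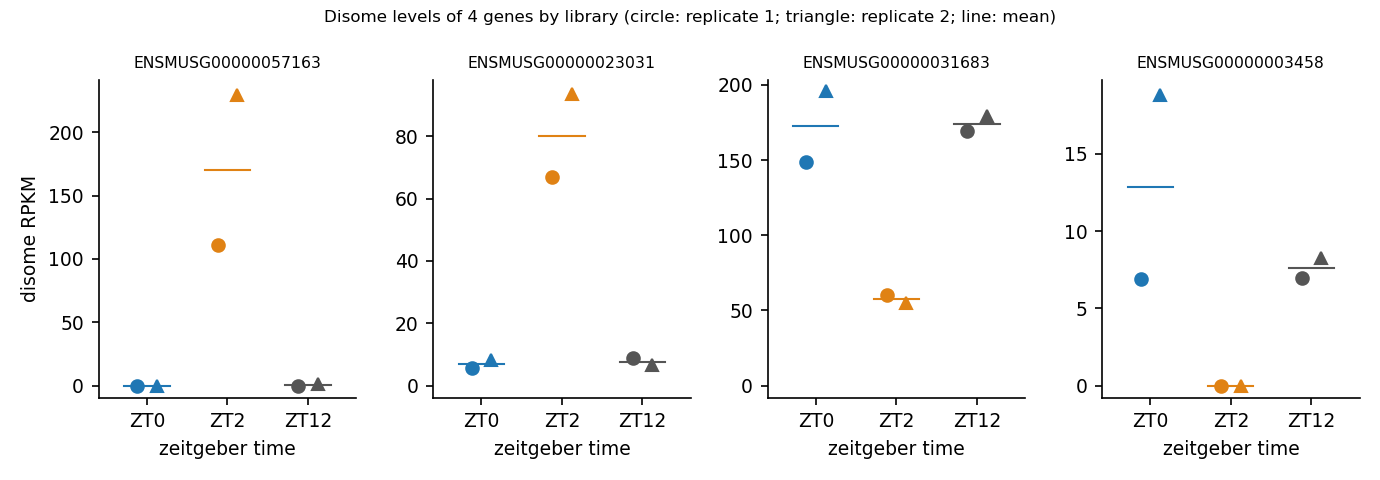
Disome RPKM in each library is drawn for 4 genes, with zeitgeber time on the horizontal axis and a separate linear vertical axis for each gene. Circles are replicate 1, triangles replicate 2 and lines the means of 2 libraries. The ZT2 libraries lie above all others for the first 2 genes and below all others for the last 2.

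Apart from these single genes, the libraries of many genes did not overlap. With 2 libraries against 2, a large share of genes would not overlap even without any change. The counts that follow are therefore not counts of changed genes. Both ZT2 libraries were above both ZT0 libraries in 1796 genes (21.5% of those tested) and below both in 2081 genes (24.9%). A change of over 2-fold without overlap was found in 131 genes higher (1.57%) and 303 genes lower (3.63%) at ZT2, and one of over 4-fold in 8 genes higher (0.0958%) and 20 genes lower (0.239%). Among the listed genes, large differences were therefore more often on the lower side in these libraries. Only 2 genes passed the test, both higher at ZT2, and 0 lower ones did. Of the genes over 2-fold apart without overlap, 104 lower and 24 higher ones averaged under 20 reads. The filter behind the gene list is not given. Of the genes listed, 4 were at 0 in each ZT0 library, against 97 and 250 in the ZT2 libraries. Genes low at ZT0 may be missing from the list, which was not tested, so the 2 sides may not be on equal terms. Among genes averaging 5 RPKM or more, the 15 higher with the smallest p had log2 changes of 0.78 to 7.33. Their coding lengths ran from 132 to 1845 nucleotides and their mean levels from 7.85 to 3066 RPKM. The 15 lower with the smallest p had log2 changes of -3.64 to -0.97. Their coding lengths ran from 186 to 1695 nucleotides and their mean levels from 5.22 to 760.6 RPKM. The largest changes sat on thinner data than the smallest p: the 10 genes lower by the largest change held a median of 21 reads per library, and 5 of them were listed at 0 in 1 ZT2 library and 2 in both. The 10 genes higher by the largest change held a median of 62.5 reads.

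The ZT12 levels of these genes are given beside them. The ZT12 libraries entered the choice through the filter on mean RPKM and through the spread behind each p, but not through the direction of the change. Of the 15 genes higher at ZT2, 10 had a ZT12 mean between the ZT0 and ZT2 means, 3 were higher still at ZT12 and 2 were below the ZT0 mean. Of the 15 lower genes, 11 were between, 1 was lower still and 3 were above the ZT0 mean. Over all genes without overlap, the ZT12 mean lay between in 45.6% of the 1796 higher genes and in 45.2% of the 2081 lower genes. It lay beyond the ZT2 mean in 22.9% and 22.2%, and on the far side of the ZT0 mean in 31.5% and 32.6%. These are positions of means, with no test of the order. All these genes were chosen for separate ZT0 and ZT2 levels, which by itself makes a ZT12 mean between them more likely.

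The 2 genes ranked highest by mean RPKM took a larger share of disome reads at ZT2, and the next 8 together did not. The ranking used the mean of all 6 libraries, ZT2 included, so high ZT2 values helped to place these 2 first. Of the 10, rank 3 had the highest ZT0 mean, 68006 RPKM against 50005 and 49452 RPKM at ranks 1 and 2. Among the next 8, ranks 4 and 5 were higher at ZT2 without overlap, and ranks 6 and 7 were lower. The 2 genes with the highest mean RPKM (ranks 1 and 2) held 4.56% and 4.29% of reads in the ZT0 libraries and 8.13% and 7.33% in the ZT2 libraries, against 5.43% and 4.76% at ZT12. The genes at ranks 3 to 10 held 17.2% and 17.4% in the ZT0 libraries, 15.3% and 17.4% in the ZT2 libraries, and 17.4% and 15.4% in the ZT12 libraries. The 10 together held 21.7% in each ZT0 library, 23.4% and 24.7% in the ZT2 libraries, and 22.8% and 20.2% in the ZT12 libraries. The number of genes that held 50% of reads was 68 and 67 at ZT0 and 57 and 58 at ZT2. By this last count both ZT2 pools were more concentrated than both ZT0 pools, and with 2 libraries against 2 an exact permutation test cannot reach 0.05.

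The gene at rank 1, with 465 coding nucleotides, had 49393 and 50618 RPKM at ZT0 and 97451 and 83925 RPKM at ZT2, a ratio of means of 1.81. The gene at rank 2, with 441 coding nucleotides, had 53535 and 45369 RPKM at ZT0 and 86801 and 80764 RPKM at ZT2, a ratio of 1.69. For both, the ZT2 pools were close to each other and above all 4 other libraries, which at ZT12 had 60888 and 54640 RPKM for the first and 51557 and 46547 RPKM for the second. Their log2 changes were 0.85 ± 0.21 and 0.76 ± 0.21 (SE), with limma adjusted p of 0.21 and 0.23. Quantile normalization lowered the first to 0.25. The gene at rank 5 went the same way, with 37684 and 31324 RPKM at ZT0 and 54028 and 46940 RPKM at ZT2, and a limma adjusted p of 0.34.

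In other abundant genes the ZT2 pools were far apart. The gene at rank 3 had 70328 and 65684 RPKM at ZT0 but 36268 and 71264 RPKM at ZT2. The gene at rank 7 had 28038 and 34237 RPKM at ZT0 and 7392 and 23125 RPKM at ZT2, so its ZT2 libraries were 3.13-fold apart. The gene at rank 6 had 26335 and 27370 RPKM at ZT0 and 14187 and 24382 RPKM at ZT2. In these 3 genes ZT2 replicate 1 held the lowest value of all 4 libraries, and in the gene at rank 4 it held the highest, at 96283 RPKM against 46974, 50592 and 53941 RPKM in the others. The genes at ranks 8 to 10 overlapped between the times, with ratios of means of 0.927, 0.934 and 1.01. Of the 10 genes, 4 were higher at ZT2 without overlap, 2 were lower without overlap and 4 overlapped, where 21.5% and 24.9% of all tested genes were higher and lower without overlap. None passed the limma test (0 of 10), and 4 had an unadjusted p under 0.05. Over all tested genes, limma gave an unadjusted p under 0.05 to 5.40% as higher and 8.27% as lower at ZT2.

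**Figure D3:**
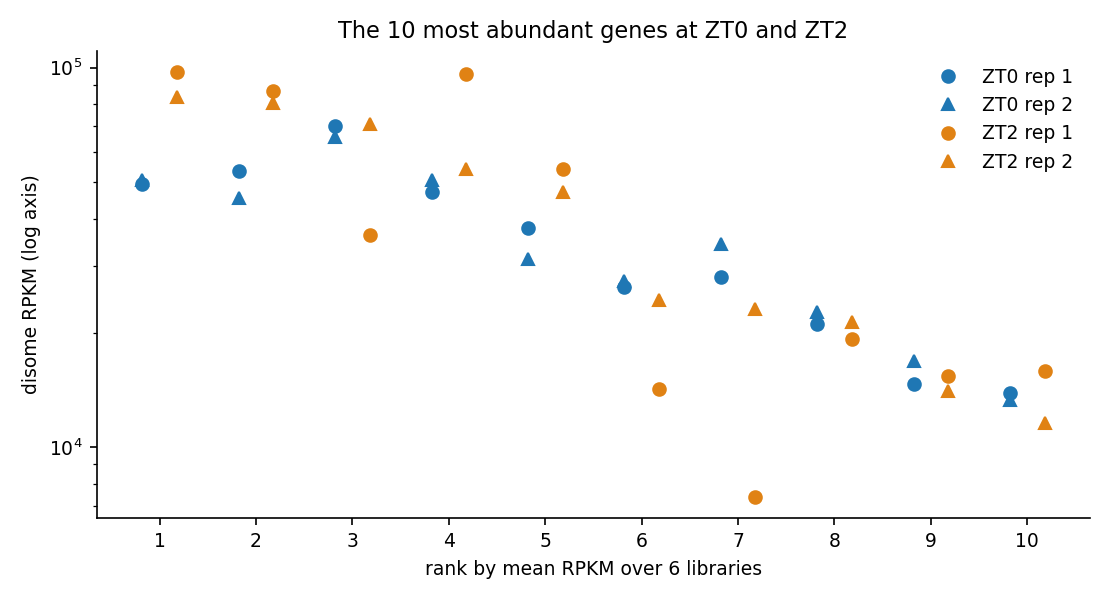
Disome RPKM on a log axis is drawn for the 10 genes with the highest mean, by rank, with ZT0 libraries in blue and ZT2 libraries in orange; circles are replicate 1 and triangles replicate 2. The ZT2 libraries lie above the ZT0 libraries at ranks 1 and 2, while at ranks 3, 6 and 7 ZT2 replicate 1 lies well below ZT2 replicate 2.

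The ZT2 pools lay about as far from each other as from the ZT0 pools. Across the tested genes the median absolute log2 difference was 0.19 between the ZT0 libraries and 0.40 between the ZT2 libraries, against 0.35 to 0.41 for the 4 pairs made of 1 ZT0 and 1 ZT2 library. The ZT2 libraries were over 2-fold apart in 1199 genes (14.4%) and the ZT0 libraries in 120 genes (1.44%), and ZT0 and ZT2 libraries were over 2-fold apart in 731 to 1127 genes. In 746 of the 1199 genes ZT2 replicate 1 was the higher one, and in 453 it was the lower one. Among the 100 most abundant genes 6 were over 2-fold apart at ZT2, 3 in each direction, and 1 at ZT0. The ZT2 libraries were farther apart than the ZT0 libraries at low and at high depth, with median differences of 0.73 against 0.31 for genes with under 20 reads on average and 0.25 against 0.14 for genes with 1000 or more. Of the tested genes, 55 were listed at 0 in ZT2 replicate 1 and 166 in ZT2 replicate 2, against 4 in any ZT0 library. Among all listed genes, 4 were at 0 in each ZT0 library and in ZT12 replicate 1, and 52 in ZT12 replicate 2. The filter that made the list is not given and may have left out genes at 0 at ZT0. These counts are therefore not a comparison of the times. Both ZT2 libraries were at 0 in 8 genes, which had 14 to 41 reads over the ZT0 libraries together. All 8 had reads in both ZT12 libraries. Such genes could pass the filter on mean RPKM only through the ZT0 and ZT12 libraries, so reads there were largely set by the choice.

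The median change went from below 0 in short coding sequences to above 0 in long ones, and the differences between classes were small. The median log2 change was -0.22 for the 210 genes under 300 coding nucleotides and -0.12 for the 975 genes from 300 to under 600. It was -0.07 for the 2506 genes from 600 to under 1200, -0.03 for the 3057 genes from 1200 to under 2400 and 0.04 for the 1607 genes of 2400 or more. Over 2-fold lower without overlap were 12.4% of the shortest class and 0.56% of the longest, and over 2-fold higher were 3.81% and 0.747%, where the background over all tested genes was 3.63% and 1.57%. The shift of the shortest class came mainly from 1 library: its median was -0.28 in ZT2 replicate 2 and -0.02 in ZT2 replicate 1. In the longest class both libraries were slightly above ZT0, at 0.06 and 0.03. With libraries set to an equal sum of RPKM, the longest class was at -0.03 and the shortest at -0.30.

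Short genes can reach 1 RPKM with few reads, so the classes were also read among genes averaging 200 reads or more over the 4 libraries. There, the median was -0.09 for 58 genes under 300 nucleotides, -0.03 for 303 genes from 300 to under 600, -0.04 for 776 genes from 600 to under 1200, -0.06 for 927 genes from 1200 to under 2400 and -0.01 for 460 genes of 2400 or more. At this depth the medians thus did not rise steadily with length. The share over 2-fold lower without overlap was 5.17%, 4.29%, 1.68%, 0.755% and 0.217% in these classes, from short to long. The share over 2-fold higher was 3.45%, 0.330%, 1.42%, 0.216% and 0.652%. These shares rest on few genes: 3 lower and 2 higher in the shortest class, and 1 lower and 3 higher in the longest. In the shortest class with 200 reads or more, the medians were 0.08 in ZT2 replicate 1 and -0.23 in ZT2 replicate 2, and in the longest they were -0.07 and 0.07, so the pools differed in direction in both.

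**Figure D4:**
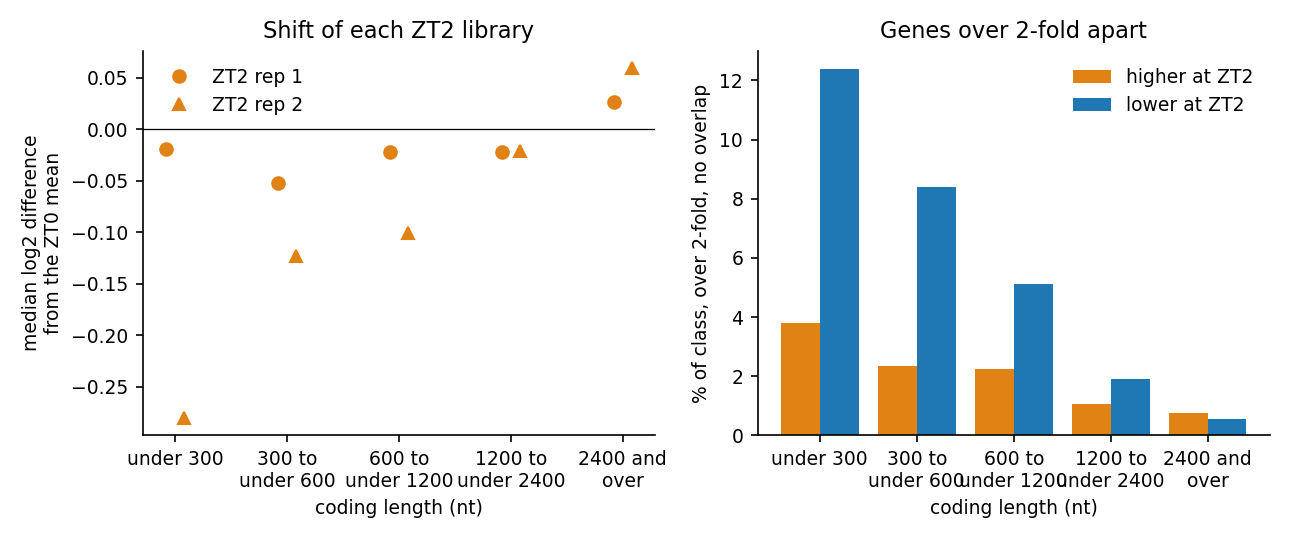
The left panel gives, for 5 classes of coding length, the median log2 difference of each ZT2 library from the ZT0 mean, and the right panel the percent of genes over 2-fold higher (orange) or lower (blue) at ZT2 without overlap. In the shortest class ZT2 replicate 2 lies at -0.28 and replicate 1 at -0.02, and 12.4% of genes were over 2-fold lower.

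Large differences were also more frequent among genes with few reads, and coding length and level were not separated from depth in this. Among the 981 genes with under 20 reads on average, 2.45% were over 2-fold higher and 10.6% over 2-fold lower at ZT2 without overlap. Among the 808 genes with 1000 reads or more these were 0.619% and 1.11%, against 1.57% and 3.63% over all tested genes. In the latter class, 5 genes were over 2-fold higher and 9 over 2-fold lower. By level, the 126 genes with a mean of 1000 RPKM or more had a median log2 change of -0.06. Of them, 1 (0.794%) was over 2-fold higher and 2 (1.59%) were over 2-fold lower without overlap. The quartiles of this class were -0.32 and 0.25.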

How the data were processed

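Disome footprints were measured in 6 liver libraries, 2 each at ZT0, ZT2 and ZT12. Per the labels' protocols, lysis was in the presence of cycloheximide, an elongation inhibitor, lysates were pooled from 2 mice, RNase I digestion used 650 U over 45 min, ribosomes were isolated by size exclusion, and ribosomal RNA was depleted. The authors deposited 1 table of RPKM values per library, with no header. The submitters' processing notes name STAR, Bowtie2 2.3.0, cutadapt, CASAVA 1.82, edgeR and StringTie, and the builds mm10 and GRCm38.p2. What each tool did, the gene filter and the handling of multi-mapped reads are not given in the sources used, so genes with near-identical copies are uncertain.

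Whole reads were recovered from the steps of the RPKM values, to a relative tolerance of 5e-13, directly for 99.59% of genes and through the length for the other 37. Recovered lengths were multiples of 3 in 95.16% of genes and are called coding lengths. Reads could be too low where all 6 share a factor. Genes were tested on log2(RPKM + 1) with limma 3.58.1 (R 4.3.3) in a single fit of all 6 libraries by time point, without covariates (3 residual degrees of freedom), with a variance trend, Benjamini-Hochberg adjustment over 8355 genes and a threshold of 0.05. The scale understates changes of low genes. The test was checked on simulated data. The rule for named genes took those past the threshold, the 15 each way with the smallest p and the 10 each way with the largest change among genes of at least 5 RPKM without overlap, and the 10 most abundant. It also took members of gene lists, which could not be matched. Since identifiers carry no names, 2 in each direction are printed. The comparison, the rule and the lists were chosen with earlier results of these data known. Same-numbered libraries deviated with correlations of -0.076 (ZT0 and ZT2), -0.019 and 0.018, so the numbers were not taken to pair them. The fold floors cover counting error only, while the SDs and SEs reflect the spread between libraries.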

Additional observations from a re-analysis of the deposited data

How the results depend on the processing

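The count of 2 called genes was 6 with a pseudocount of 0.1 (4 of them lower), 9 with voom on recovered reads (5 higher, 4 lower) and 8 at an adjusted p threshold of 0.1 (5 lower). It was 1, higher at ZT2, without the variance trend, with only the 4 libraries compared and with genes listed at 0 left out. With 1 library removed at a time, 0 to 248 genes were called, 0 to 34 higher and 0 to 214 lower, where a lone library is assumed to vary like the other groups. A pseudocount of 5, no filter, a filter at 5 RPKM, all 3 other scalings, the robust prior and array weights kept the counts within 1.5 times. A replicate block in the fit also gave 2, and the same 2 genes were called. No named gene changed direction in any setting run. Scaling to the same sum of RPKM, chosen after seeing the data, took the median log2 change over all genes from -0.04 to -0.11. The causes were not tested. Alternatives for gene lists were left out, since no list was matched. With a median of 67 to 81 reads per gene and 2 libraries per time, small changes could not be resolved.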
